A study of Mus musculus with 2 samples.

Results

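The genes described here lead the Cd24a-rich cells of the mouse thymus among γδ T cells, lymphocytes whose antigen receptor is built from a γ and a δ chain. They are Cd24a, Hlf, Sdc4, Insl5, Tox2, Tmem121, Igfbp4, Cpa3, Endou and Aldh2. They were found by symbol, all 10 among the 27998 genes of the count tables, and they were chosen by their measured UMI levels in these same thymic cells, as leading genes of the cells with many Cd24a molecules, so their rise with Cd24a below is a description and not a finding. The questions put to the data were how closely each of the other 9 followed Cd24a from cell to cell, and which of them divided the immature cells into separate sets.

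The series holds 1 library of γδ T cells from the liver and 1 from the thymus, each made with droplet-based 3′ single-cell RNA sequencing, in which every captured transcript is counted once by a unique molecular identifier (UMI). Both tissues came from wild type, untreated C57BL/6J mice of 8 weeks, and cells were sorted as CD3ε+ TCRγδ+. The thymic suspension alone was first depleted with beads against CD4 and CD8, so tissue and preparation cannot be told apart. With 1 library per tissue and several mice behind the series, with no record here of which mouse gave which cell, no comparison has a replicate: all intervals below are 95% intervals for counting error only, and no test was made.

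CD24a, a small glycoprotein anchored in the membrane and also known as heat-stable antigen, is abundant on newly formed thymocytes and is lost as they mature. In the mouse thymus, γδ cells that have just assembled their receptor carry it, and cells already directed towards interleukin-17 production leave this stage with regulators such as Sox13, Maf and Blk. The other genes encode proteins of unrelated kinds. Hlf is a transcription factor of the PAR bZIP family and Tox2 one of the HMG-box family, Sdc4 is a heparan sulfate proteoglycan of the cell surface, Insl5 is a peptide hormone of the relaxin family, and Igfbp4 is a secreted protein that binds insulin-like growth factors. Cpa3 is a carboxypeptidase best known from mast cell granules, Endou is an endoribonuclease that cuts at uridines, Aldh2 is the mitochondrial aldehyde dehydrogenase, and Tmem121 is a transmembrane protein.

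On the mouse build GRCm38 the genes lie on 8 chromosomes and none overlaps another gene of the count tables. Cd24a spans chr10:43578284-43584265, Hlf chr11:90336536-90390895, Sdc4 chr2:164424247-164443887, Insl5 chr4:103017872-103026842, Tox2 chr2:163203125-163324170 and Tmem121 chr12:113185930-113189523. Igfbp4 spans chr11:99041244-99054392, Cpa3 chr3:20215620-20242181, Endou chr15:97711015-97731339 and Aldh2 chr5:121566027-121593824. Hlf and Igfbp4 share a chromosome, as do Sdc4 and Tox2, and in both cases the results below put the neighbours on opposite sides of a split of the immature cells. The promoters of 2 genes from each side are shown here, from 250 bases before to 50 bases after the start, with E-boxes (CANNTG, the letters bound by E proteins, which reads the same on both strands) in capitals. Tmem121 stands in place of Tox2, which had 5 windows. They are RefSeq windows on GRCm38.p6, where 7 of the 10 genes had an entry, and are printed 5′ to 3′ on the gene's own strand: Hlf from chr11:90390868-90391167 (minus), Sdc4 from chr2:164443139-164443438 (minus), Igfbp4 from chr11:99040994-99041293 (plus) and Tmem121 from chr12:113185653-113185952 (plus).
Hlf: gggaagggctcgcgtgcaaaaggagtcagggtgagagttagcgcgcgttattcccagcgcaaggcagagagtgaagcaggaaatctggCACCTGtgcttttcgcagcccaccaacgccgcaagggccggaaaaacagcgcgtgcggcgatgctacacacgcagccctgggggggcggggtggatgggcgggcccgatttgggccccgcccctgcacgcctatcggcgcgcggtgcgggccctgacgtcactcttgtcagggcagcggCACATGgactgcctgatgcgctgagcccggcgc
Sdc4: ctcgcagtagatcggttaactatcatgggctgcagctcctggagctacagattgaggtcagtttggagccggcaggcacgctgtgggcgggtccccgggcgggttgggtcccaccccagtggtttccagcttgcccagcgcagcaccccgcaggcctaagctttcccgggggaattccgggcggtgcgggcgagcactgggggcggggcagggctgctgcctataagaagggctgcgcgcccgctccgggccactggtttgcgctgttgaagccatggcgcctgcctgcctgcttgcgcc
Igfbp4: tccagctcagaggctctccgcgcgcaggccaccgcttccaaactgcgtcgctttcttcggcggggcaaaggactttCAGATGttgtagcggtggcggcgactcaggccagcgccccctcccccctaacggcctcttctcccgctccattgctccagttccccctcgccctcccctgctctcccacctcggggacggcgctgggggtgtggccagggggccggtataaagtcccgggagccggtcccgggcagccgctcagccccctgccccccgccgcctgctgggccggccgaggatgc
Tmem121: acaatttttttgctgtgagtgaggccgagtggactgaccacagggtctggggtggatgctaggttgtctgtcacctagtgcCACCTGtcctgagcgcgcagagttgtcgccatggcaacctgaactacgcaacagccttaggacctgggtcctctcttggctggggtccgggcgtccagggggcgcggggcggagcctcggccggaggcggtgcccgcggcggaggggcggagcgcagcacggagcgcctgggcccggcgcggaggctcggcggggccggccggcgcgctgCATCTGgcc
The Hlf and Tmem121 windows each held 2 E-boxes, the Igfbp4 window 1 and the Sdc4 window none, whereas 72.3% of all 32851 promoter windows held at least 1. The RUNX letters TGTGGT, searched on both strands, were in the Tmem121 window and not in the other 3, against 16.8% of all windows. AACAAT, the letters of SOX factors, and TTACGTAA, the palindrome of the PAR bZIP factors to which Hlf belongs, were in none of these 4 windows, against 10.7% and 0.119% of all windows. The first Tox2 window, not shown, held 1 AACAAT. The matches describe letters only.

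Of the barcodes deposited, 8075 of 8658 hepatic cells and 4351 of 4541 thymic cells had 800 to 4000 genes and at most 6% mitochondrial UMIs, and these are the cells used here. Their median depth was 2741 UMIs in the liver and 3271 in the thymus, and 60 barcodes occurred in both libraries. At least 1 UMI of Cd3d, Cd3e or Cd3g was present in nearly all cells at every level of Cd24a, for example in 1628 of 1631 thymic cells without Cd24a and in all 619 with 5 or more Cd24a UMIs. The defining mast cell genes, which matter because of Cpa3, summed to between 0 and 0.305 CPM (counts per 1000000 UMIs) across the thymic bins of Cd24a, with 6 of the 7 genes at 0 in every bin and 1 Gata2 UMI in all. Rag1 and Rag2, which mark cells still recombining, were near absent at every level of Cd24a, each with 0 UMIs in thymic cells without Cd24a and 1 UMI in those with 3 or more.

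All 10 genes were higher in the thymus than in the liver. Cd24a stood at 509 CPM (498 to 520) in thymic and 10.0 CPM (8.79 to 11.4) in hepatic cells, a ratio of 50.8. Ratios above 100 belonged to Endou (166 against 0.331 CPM, 502-fold), Tox2 (92.8 against 0.455 CPM, 204-fold), Cpa3 (179 against 1.37 CPM, 131-fold) and Insl5. Insl5 had 375 UMIs in the thymus and 0 in the liver, at least 177-fold higher when the liver is set at 3 counts. Hlf and Sdc4 were the least restricted, Hlf at 15.5 against 2.40 CPM (6.45-fold) and Sdc4 at 36.3 against 8.73 CPM (4.16-fold). A ratio past 2-fold with an interval clear of 1 was thus met by 10 of 10, where 16.9% of the 10869 genes with at least 50 UMIs were that much higher in the thymus. Since the members were picked in thymic cells, nothing is read from that count.

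After every cell was thinned to 1500 UMIs, the share of cells with a UMI ran from 3.15% (Hlf, 137 of 4344) to 42.7% (Cd24a) in the thymus, and from 0% (Insl5, 0 of 8070, upper bound 0.0457%) to 1.09% (Sdc4) in the liver. Without thinning, thymic shares were 5.06% for Hlf and 62.5% for Cd24a. Among the hepatic cells without Cd24a (median 2740 UMIs), the thinned shares were 0.302% for Hlf, 1.05% for Sdc4 and 0.0378% for Endou, each below its thymic share. Hlf was therefore a rare transcript, with at most 4 UMIs in any thymic cell, while Igfbp4 reached 20.

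Cd24a UMIs per thymic cell formed a continuous range: 1631 cells had 0, 903 had 1, 567 had 2, 631 had 3 to 4 and 619 had 5 or more. The label of immaturity was borne out only in part by the genes that mark early cells. Between cells with 3 or more Cd24a UMIs and cells with 0, Dntt (terminal transferase) stood at 156 against 53.3 CPM (2.93-fold) and Hes1, a Notch target, at 665 against 281 CPM (2.37-fold), whereas Sox4 (804 against 601 CPM) and Ccr9 (802 against 728 CPM) differed by less than 2-fold. Genes of emigration and late stages were lower in the Cd24a-rich cells, 5 of 7 past 2-fold, among them S1pr1 (77.7 against 212 CPM) and Ccr7 (37.8 against 104 CPM), as were 4 of 5 effector genes of the interleukin-17 type, Il17a at 2.02 against 36.7 CPM. Cells with more Cd24a UMIs were also deeper, with a median of 3995 UMIs at 5 or more against 2980 at 0, and 24.7% against 9.81% had a UMI of a cycling gene. Erythroid genes moved the other way, with 204 CPM at 0 Cd24a UMIs and 39.0 to 43.3 CPM in the other bins, and so did myeloid genes, at 60.02 CPM with 0 Cd24a UMIs and then 42.8, 12.01, 10.8 and 10.1 CPM, with 3 of 3 tested genes past 2-fold lower. The part of depth, cycling, erythroid and myeloid RNA in the results by Cd24a was not tested, beyond 2 kinds of values given below. These are the values with Cd24a counted at fixed depth, and the counts of genes past 2-fold after cells were left out.

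Endou followed Cd24a bin by bin. Its level was 95.4 CPM (87.3 to 104) in cells without Cd24a and then 170, 184, 214 and 226 CPM (210 to 243), a ratio of 2.31 between cells with 3 or more and cells with 0. Tmem121 went from 81.5 to 156 CPM and Cpa3 from 122 CPM to a peak of 224 CPM at 3 to 4 UMIs, then 195 CPM. Tox2 and Igfbp4 peaked in the middle, Tox2 at 67.8, 94.3, 122, 115 and 93.0 CPM and Igfbp4 at 329, 388, 432, 413 and 315 CPM. Both were thus highest in cells with 2 Cd24a UMIs. Aldh2 went from 60.6 to 94.0 CPM at 2 UMIs and Insl5 from 12.5 to 32.2 CPM at 3 to 4. Hlf had no order at all, with 16.0, 12.3, 12.01, 22.8 and 14.3 CPM, and Sdc4 stayed between 29.5 and 49.7 CPM.

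Only 3 of the 10, Cd24a itself, Endou and Insl5, were past 2-fold between cells with 3 or more and 0 Cd24a UMIs, against 2.71% of 8783 genes higher and 3.42% lower, and since this contrast chose the members nothing is read from the count. The median log2 ratio was 0.60 over the 9 other genes and 0.01 over all genes tested. Ranked by ratio among 8674 genes outside the mitochondrial and ribosomal ones, Insl5 came at place 131 and Endou at 132, Tmem121 at 322 and Cpa3 at 407, and Hlf (2774) and Igfbp4 (3243) far behind. A shorter ranking left out genes that stayed below 50 CPM on both sides, and among its 2714 genes Endou came at place 20. Apart from the 10, the first genes of this shorter ranking were Ly6d (6.77-fold), Cdca7, Mcm5, 2810417H13Rik and 1500009L16Rik. Hist1h2ap, Dntt, Mcm3, Ung and Stmn1 came next. Mcm3 and Mcm5 are subunits of the replicative helicase, and the share of cells with a cycling UMI was higher with Cd24a as given above.

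The picture changed when Cd24a was counted at equal depth. A large cell yields 3 Cd24a UMIs more easily than a small one, so each cell was thinned to 1500 UMIs before its Cd24a UMIs were counted, while the levels of the other genes were still taken from all UMIs. On this scale the bins of 0, 1, 2 and 3 or more UMIs held 2488, 1005, 435 and 416 cells, the highest Cd24a bin now had the lowest median depth (2706 UMIs), and its cycling share was 8.17%. Hlf then went up with Cd24a at every step, from 11.9 CPM (9.87 to 14.3) to 14.3, 22.8 and 35.0 CPM (25.9 to 46.3). Sdc4 went from 26.3 CPM (23.2 to 29.7) to 37.9, 49.0 and 85.0 CPM (70.5 to 102), and Insl5 from 15.3 to 47.9 CPM. Endou went from 129 to 287 CPM and Cpa3 from 146 to 254 CPM. Igfbp4 (367 to 307 CPM) and Tox2 (88.2 to 77.2 CPM) ended below where they began, and Aldh2 stayed between 73.2 and 91.7 CPM. Past 2-fold between the outer bins were then Hlf, Sdc4, Insl5 and Endou, beside Cd24a, which defines the bins, against 1.41% of 8772 genes higher and 3.76% lower, and again nothing is read from that count. With Cd24a counted at equal depth, Hlf, Sdc4, Insl5, Endou and Cpa3 were therefore higher in the top Cd24a bin than in the bin of 0. The cells of these bins were themselves not of equal depth, and the part of that in these levels was not tested. Tmem121 was higher by less, at 142 against 111 CPM (1.28, 1.09 to 1.49). Tox2 and Igfbp4 were not higher, and the interval of Aldh2 (1.09, 0.888 to 1.34) included 1. Against the raw counts, the ratio of the outer bins moved from 1.13 to 2.93 for Hlf and from 1.41 to 3.23 for Sdc4, and it turned from 1.52 to 0.875 (0.710 to 1.07) for Tox2 and from 1.09 to 0.837 (0.755 to 0.925) for Igfbp4.

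**Figure D1:**
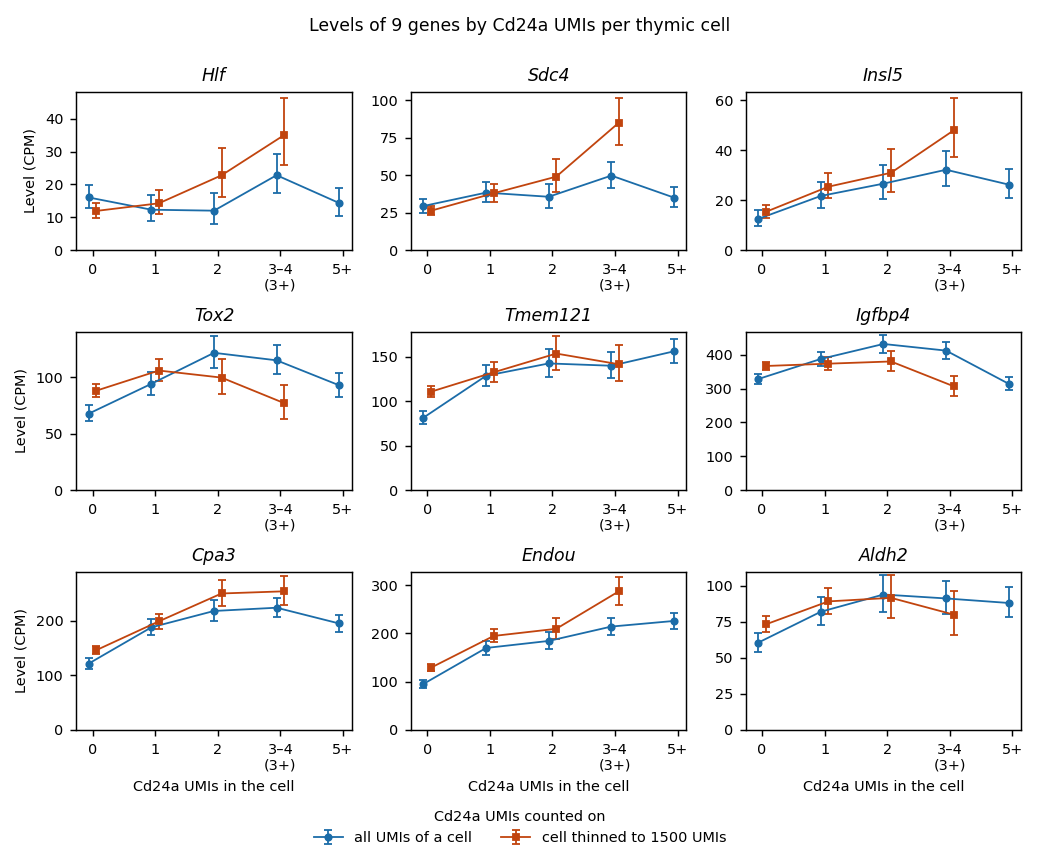
Level of each of the 9 other genes (CPM, vertical axis from 0) in thymic cells binned by Cd24a UMIs, with 95% counting intervals. Blue circles bin on all UMIs of a cell and red squares on Cd24a UMIs after thinning each cell to 1500 UMIs, for which the last bin is 3 or more. Hlf and Sdc4 are nearly level in blue and reach 35.0 and 85.0 CPM in red, whereas Tox2 and Igfbp4 peak at 2 UMIs in blue and end lower in red.

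To ask which genes split the immature cells, thymic cells with at least 2 Cd24a UMIs were taken, 1817 in all. This is a range of a count and not a cell type: 567 of them sat just inside the limit with exactly 2 UMIs, 903 cells just outside with 1, and between these neighbours Hlf was 12.01 against 12.3 CPM, Tox2 122 against 94.3 CPM and Endou 184 against 170 CPM. Within the 1817 cells, levels were 939 CPM for Cd24a, 379 for Igfbp4, 211 for Cpa3, 210 for Endou, 147 for Tmem121, 108 for Tox2, 90.8 for Aldh2, 39.9 for Sdc4, 28.2 for Insl5 and 16.4 for Hlf.

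The first division used genes outside the 10. Each immature cell, thinned to 1500 UMIs, was placed by a UMI of Dntt against a UMI of Sox13, Maf or Blk, the regulators named above: 127 cells had Dntt alone, 801 had the trio alone, 181 had both and 706 neither. Hlf stood at 5.19 CPM in cells with Dntt alone (4 UMIs) and 24.8 CPM in cells with the trio alone (77 UMIs), a ratio of 0.209 (0.0557 to 0.558). Sdc4 stood at 22.0 and 60.8 CPM, a ratio of 0.363 (0.207 to 0.596). These 2 of 10 were past 2-fold, both on the trio side, where 3.87% of 6273 genes were lower by that much and 2.68% higher. Tox2 (ratio 0.619), Cpa3 (0.601) and Igfbp4 (0.700) were on the same side by less than 2-fold, and for Tmem121 (1.02, 0.833 to 1.24), Aldh2 (1.06, 0.812 to 1.37), Endou (0.883, 0.747 to 1.04) and Insl5 (0.778, 0.469 to 1.24) the intervals included 1. Cells with Dntt alone had a median of 4761 UMIs and 31.5% had a cycling UMI, against 3244 UMIs and 11.7% for the trio. With cycling cells left out (87 against 707 cells), Hlf alone was past 2-fold (ratio 0.361), and Sdc4 was at 0.567. Hlf then had at most the 4 UMIs given above in cells with Dntt alone. The share over all genes is not given for these cells, so nothing is read from the number past 2-fold.

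The second division took clusters. The comparison below was chosen after seeing the data. Both libraries were clustered together without the 10 genes among the variable genes, and 2 of the 11 clusters held most immature cells: cluster 2 (633 cells, 34.8%), led apart from the 10 by Etv5, Sox13, Ccr9, Rapgef3 and Dntt, and cluster 4 (689 cells, 37.9%), led by Tnfsf11, Slc35d1, Lars2 and Hes1. A further 18.5% were in cluster 7, of cycling cells, and 8.26% in cluster 5, led by S1pr1 and Cd200. Every gene of the clustered cells counts as used in making the clusters, so the values are a description.

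Between them the 10 genes fell into 3 sets. Tox2 was at 176 CPM (519 UMIs) in cluster 2 and 51.9 CPM (97 UMIs) in cluster 4, a ratio of 3.38 (2.72 to 4.25), and Igfbp4 (608 against 250 CPM, 2.43-fold) and Tmem121 (200 against 92.1 CPM, 2.17-fold) sided with it. Hlf was at 3.73 CPM (11 UMIs) against 65.3 CPM (122 UMIs), a ratio of 0.0570 (0.0277 to 0.106), Sdc4 at 18.3 against 137 CPM (0.133, 0.0976 to 0.180) and Insl5 at 28.1 against 61.6 CPM (0.456). Cd24a itself was at 809 against 1603 CPM (0.505). Endou (263 against 280 CPM, 0.940, 0.840 to 1.05) and Cpa3 (300 against 263 CPM, 1.14, 1.02 to 1.28) were at like levels in both clusters, and Aldh2 was 1.83-fold higher in cluster 2. Past 2-fold were 3 genes higher and 3 lower of 10, where 3.31% of 6747 genes were higher and 3.57% lower. The same 6 were past 2-fold, in the same directions, among cells without a cycling UMI, against 2.98% of genes higher and 3.42% lower. Hlf and Tox2 were the sharpest pair: in the sum over both clusters, 122 of 133 Hlf UMIs came from cluster 4 and 519 of 616 Tox2 UMIs from cluster 2.

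**Figure D2:**
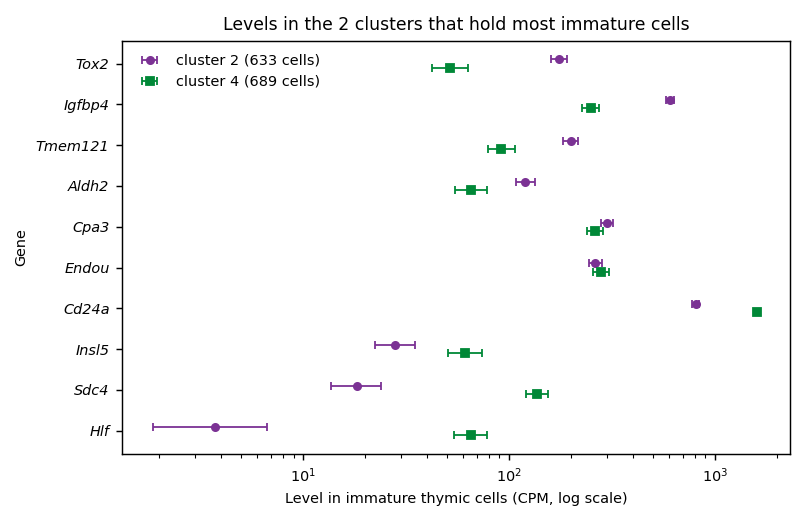
Levels of the 10 genes (CPM, log axis) in the immature thymic cells of cluster 2 (purple circles) and cluster 4 (green squares), with 95% counting intervals. From top to bottom the genes pass from higher in cluster 2 (Tox2, 176 against 51.9 CPM) through level (Endou, 263 against 280 CPM) to higher in cluster 4 (Hlf, 3.73 against 65.3 CPM).

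The 2 divisions put Hlf and Sdc4 on the same side, and Tox2 and Igfbp4 on different sides. Cells with Dntt alone were in cluster 2 more than in cluster 4 (47.2% against 16.5%), but the trio was spread over both (38.3% and 49.7%). Of the type 17 regulators, Maf (96.9 against 271 CPM, ratio 0.357) was lower in cluster 2, whereas Sox13 (277 against 246 CPM) and Blk (308 against 290 CPM) were near level and Etv5 was 1.47-fold higher. Among early genes none of 5 measured passed 2-fold, with Dntt at 184 against 92.6 CPM (1.98-fold) and Sox4 at 821 against 1392 CPM. Of genes that respond to the receptor signal, Id3 (148 against 54.1 CPM) and Cd5 (35.6 against 12.3 CPM) were higher in cluster 2 and Egr1 stood at 128 against 247 CPM (0.516). The largest ratios outside the 10 were Izumo1r (6.93), Vim (6.78), S100a4, Plac8 and Epsti1 towards cluster 2, and Icos (0.149), Calca (0.167), Ikzf3, Gm15340 and Acvr2a towards cluster 4. Gzma, a granzyme, was at 6255 against 2168 CPM. Markers of other cells were low: Cd79b of B cells was at 19.3 against 8.03 CPM and no myeloid gene reached 50 UMIs.

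Cell size moved with the split. Immature cells of cluster 2 had a median of 4353 UMIs and those of cluster 4 of 2598, and across 4 size classes of equal cell number, cut by total UMIs after seeing the data, Hlf fell from 75.6 CPM in the smallest cells to 21.9, 7.35 and 2.90 CPM in the largest. Sdc4 fell likewise, from 137 to 89.2, 21.1 and 5.02 CPM. Tox2 went from 42.1 to 92.7 and 143 CPM and was at 114 CPM in the largest, and Igfbp4 went from 195 to 556 CPM and then stood at 324 CPM. Cd24a fell from 1827 to 635 CPM, which the limit of 2 UMIs partly fixes, since a small cell passes it only at a high level. Between the largest and the smallest class 5 of 10 genes were past 2-fold, Tox2 higher and Cd24a, Hlf, Sdc4 and Insl5 lower, against 11.4% of all 6861 genes higher and 9.74% lower. In the largest class 54.2% of the cells had a cycling UMI, in the smallest 4.18%.

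**Figure D3:**
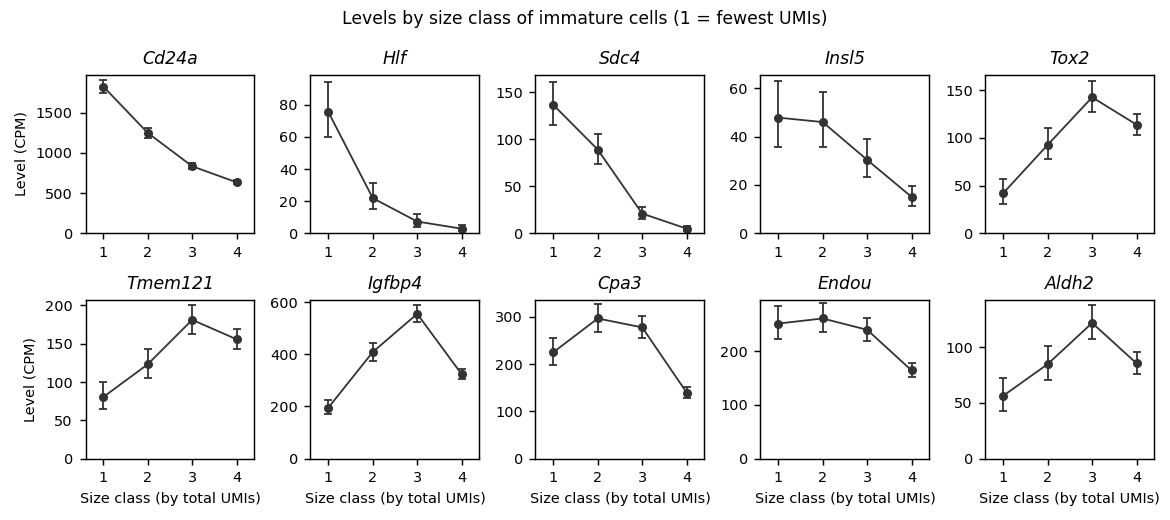
Level of each gene (CPM, vertical axis from 0) by class of total UMIs per immature thymic cell, 454 or 455 cells each, with 95% counting intervals. Hlf and Sdc4 fall from 75.6 and 137 CPM in the smallest cells to 2.90 and 5.02 CPM in the largest, whereas Tox2, Tmem121, Igfbp4 and Aldh2 peak in the class before the largest.

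Within size class 2, from 2684 to 3632 UMIs, cells of cluster 2 (144, median 3267.5 UMIs) and cluster 4 (248, median 2975 UMIs) could be set side by side at nearly equal depth. Tox2 was at 167 against 65.4 CPM (2.55, 1.76 to 3.73) and Igfbp4 at 647 against 304 CPM (2.12, 1.78 to 2.53). Sdc4 was at 40.7 against 140 CPM (0.290, 0.168 to 0.476), Insl5 at 29.98 against 68.1 CPM (0.440) and Hlf, on 31 UMIs in all, at 6.42 against 37.4 CPM (0.172, 0.0334 to 0.556). Tmem121, at 158 against 116 CPM (1.36, 0.987 to 1.88), was no longer past 2-fold. Of all 3062 genes tested in class 2, 1.18% were past 2-fold higher and 1.7% lower, and Hlf had too few UMIs for that rule. In size class 3, with 322 and 45 cells, Tox2 (2.47), Tmem121 (3.83) and Aldh2 (2.74) were past 2-fold, where 3.82% of 3765 genes were higher and 2.9% lower, and Igfbp4 was at 1.96. In size class 1, with 18 and 391 cells, Cpa3 was at a ratio of 2.12 (1.27 to 3.36) and Igfbp4 at 2.27 (1.29 to 3.75). Hlf had 0 against 79 UMIs there, and the intervals of Sdc4 (0.653, 0.176 to 1.71) and Insl5 (1.41, 0.280 to 4.37) included 1. The share over all genes is not given for class 1, so no count of genes is read from it. Cd24a, at a ratio of 0.505 over all sizes, was at 0.924 (0.718 to 1.17) in class 1 and 0.750 (0.673 to 0.835) in class 2. In class 3 it was at 0.718 (0.620 to 0.836). Class 4 held 5 cells of cluster 4, with Cd24a at 1.04 (0.668 to 1.71).

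A division made without the joint clusters also put Hlf, Sdc4 and Insl5 together on 1 side, and differed from those clusters in other genes. The immature cells were parted into 2 groups by 2-means on 20 principal components, without the 10 genes and the 6 genes of the cycling list. No further gene was left out for cycling. The group with the higher Dntt level was named group A. Without cycling cells, Dntt was at 118 CPM in group A against 134 CPM in group B (0.881, 0.738 to 1.05). Group A (531 cells, median 6545 UMIs, 51.6% with a cycling UMI) and group B (1286 cells, median 3074.5 UMIs, 5.75%) differed in depth and in cycling cells. The largest ratios towards group A were Birc5 (64.4) and Ccnb2 (32.5) of the cycling list, and 2810417H13Rik (55.8), Rrm2 (37.0) and Nusap1 (29.6). The part of cycling in this division was not tested beyond the cycling-free values below. Hlf had 2 UMIs in group A and 134 in group B, 0.523 against 30.02 CPM. Sdc4 was at 3.92 against 70.8 CPM, Insl5 at 10.99 against 43.0 CPM and Cpa3 at 124 against 286 CPM, and these 4 were past 2-fold, all lower, against 7.77% of 8117 genes lower and 8.33% higher. Among cells without a cycling UMI (257 against 1212) the 4 past 2-fold, all lower, were Hlf, Sdc4, Insl5 and Endou, against 6.2% of genes lower and 4.27% higher. Tox2 (106 against 110 CPM, ratio 0.966, 0.845 to 1.104) and Tmem121 (1.02, 0.910 to 1.14) did not differ by more than these intervals allow. Of the immature cells of cluster 4, 0 of 689 fell in group A, and of those of cluster 2, 122 of 633.

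Co-detection in single cells was then counted. Of the 45 pairs of the 10 genes, the number of immature cells with a UMI of both, at 1500 UMIs per cell (1815 cells), exceeded the product of the shares with an interval clear of 1 in 7 pairs and fell short in 4. Over all kept thymic cells 24 of the 45 pairs were above 1 and 3 below. Pairs of other genes were not counted, so nothing is read from these counts. Hlf and Sdc4 were found together in 14 cells where 5.54 were expected, a ratio of 2.52 (1.38 to 4.24), Sdc4 and Insl5 in 14 against 6.37 (2.20, 1.20 to 3.69), and Sdc4 and Endou in 66 against 37.2 (1.78, 1.37 to 2.26). On the other side were Tmem121 with Aldh2 (58 against 37.2, 1.56), Tox2 with Igfbp4 (117 against 88.0, 1.33), Igfbp4 with Cpa3 (219 against 166, 1.32) and Tmem121 with Igfbp4 (1.24). Hlf met Tox2 in 2 cells where 9.91 were expected (0.202, 0.0244 to 0.729) and Igfbp4 in 8 where 26.8 were expected (0.299, 0.129 to 0.588). Hlf with Cpa3 (0.536) and Sdc4 with Igfbp4 (0.630) were the other 2 below 1. Endou paired with Sdc4 while near level between the clusters, and it was near the product with Tox2 (0.964) and Tmem121 (0.882).

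**Figure D4:**
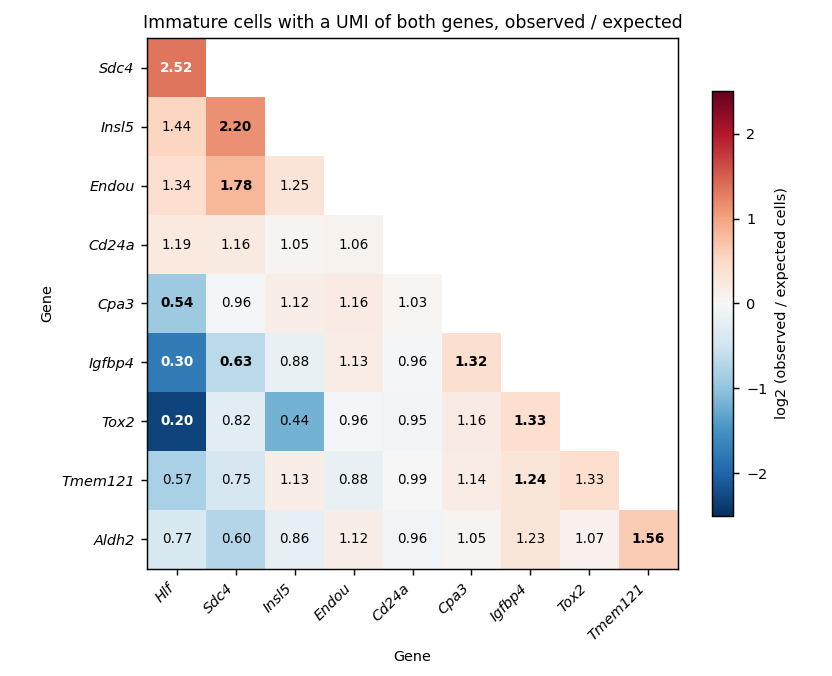
Observed over expected number of immature thymic cells with a UMI of both genes, for all 45 pairs, colored on a log2 scale with the ratio printed in each box. Bold marks the 11 pairs whose 95% counting interval excludes 1. The red corner joins Hlf, Sdc4, Insl5 and Endou, the blue block sets Hlf and Sdc4 apart from Igfbp4, and Hlf with Tox2 is the lowest at 0.20.

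Within single clusters fewer pairs departed from 1, with 3 above and 3 below in cluster 4 and 0 above and 1 below in cluster 2. Each cluster holds fewer immature cells (689 and 633 before thinning), which widens the intervals, so the lower counts are not read as a change. In cluster 4 the ratio of Hlf with Sdc4 was 1.22 (0.667 to 2.05), and in cluster 2 Tox2 with Igfbp4 was 0.996 (0.788 to 1.24). Hlf and Igfbp4 still met in fewer cells of cluster 4 than expected (8 against 17.2, 0.465, 0.201 to 0.915), as did Hlf and Tox2 (0 against 5.25), and Sdc4 and Endou in more (59 against 40.2, 1.47, 1.12 to 1.89). Without cycling cells the ratio for Hlf and Sdc4 was 2.08 (1.11 to 3.56) and for Hlf and Tox2 0.107.

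The 74 immature cells with an Hlf UMI differed from the 1741 without in the type 17 regulator Maf (222 against 104 CPM, 2.13-fold) in Sox4 (1739 against 788 CPM, 2.21-fold) and in Egr1 (323 against 120 CPM, 2.70-fold), which responds to the receptor signal, where 4.72% of 8116 genes were past 2-fold higher. The type 17 regulators Sox13 (ratio 0.854), Etv5 (0.836) and Blk (1.20) were not past 2-fold, each with an interval that included 1. The cells with Hlf were lower in Id3, where 3.77% of genes were past 2-fold lower (14.4 against 127 CPM), Dntt (67.4 against 147 CPM), Igfbp4 (135 against 386 CPM) and Tox2 (28.9 against 110 CPM), and 4.05% against 19.8% of them had a cycling UMI. Their median depth was 2496 UMIs against 3724. The smallest size class differed from the largest in the same directions. Maf was at 261 against 28.8 CPM, Sox4 at 1416 against 535 CPM and Egr1 at 245 against 71.3 CPM. Id3 was at 65.1 against 136 CPM and Dntt at 94.7 against 169 CPM, and Igfbp4 and Tox2 were lower as given above. The part of depth in the values for cells with Hlf was not tested. The 136 cells with an Sdc4 UMI also had more Maf, at 286 against 98.3 CPM (2.91-fold), and less Id3, at 36.8 against 128 CPM, whereas Sox4 (1.59), Igfbp4 (0.619), Tox2 (0.547), Egr1 (1.84) and Dntt (0.750) were not past 2-fold. Il17re, which encodes an interleukin-17 receptor chain, was the gene with the largest ratio in cells with Hlf (101 against 10.4 CPM, 21 UMIs) and among the first in cells with Sdc4 (60.4 against 10.4 CPM). In cells with Sdc4, where 3.68% of genes were past 2-fold higher and 3.92% lower, Cd74 and H2-Ab1 of antigen-presenting cells ranked above it (415 against 10.1 CPM and 94.6 against 4.43 CPM). The part of such cells or their RNA in the Sdc4 values was not tested. Nor was that of depth, with a median of 2543.5 UMIs in cells with Sdc4 against 3833 in cells without. Cells with Igfbp4 had more Sox13 (255 against 154 CPM), Etv5 (237 against 144 CPM) and Gzma (4520 against 2935 CPM) by less than 2-fold.

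Over all 4351 thymic cells, the genes most like each of the 10 in level per cell gave weak correlations that share depth and library. Cd24a went with Sox4 (Pearson r = 0.30) and Hes1 (0.29). Igfbp4 went with Plac8 (0.36) and Crip1 (0.34), Endou with Gzma (0.35), Tmem121 with Gzma (0.33), Tox2 with Gzma (0.32) and Cpa3 with Ccr9 (0.27). Values for Aldh2, Hlf, Sdc4 and Insl5 stayed at or below 0.20, too low in counts this sparse to rank.

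Across clusters and libraries the 10 genes kept to different places. In thymic cells of any Cd24a count, cluster 4 again held Hlf (64.6 CPM, against 3.92 in cluster 2) and Sdc4 (127 against 21.2 CPM), and cluster 2 held Tox2 (171 against 51.5 CPM) and Igfbp4 (617 against 261 CPM). Endou and Cpa3 were at 248 to 250 and 259 to 290 CPM in both and at 51.1 CPM each in cluster 5. In the liver, Hlf lay almost wholly in cluster 6, led by Il17a, Serpinb1a, Aqp3 and Tmem176a: 56 of its 58 UMIs (96.6%), from 54 of 793 cells, a level of 22.4 CPM (16.9 to 29.0) against 0.0923 CPM in all other hepatic cells. Sdc4 in hepatic cells of cluster 6 was at 49.1 CPM and 123 of 211 UMIs (58.3%), against 4.06 CPM elsewhere, and only cluster 9, led by Lyz2 and Apoe, was higher at 89.7 CPM. These hepatic cells had Blk at 466 against 6.51 CPM and Cd24a at only 2.40 CPM. The 167 thymic cells of cluster 6 had Hlf at 28.1 CPM (14 UMIs), against 15.1 CPM in all other thymic cells (1.86, 1.004 to 3.19). Their Sdc4 was not higher than elsewhere in the thymus, at 22.1 against 36.8 CPM (0.601, 0.299 to 1.08). Cd24a in these thymic cells was at 70.3 CPM. Hlf was thus measured both in thymic cluster 4, where Cd24a was at 979 CPM, and in cells of cluster 6, where Cd24a was far lower. No test of a cluster against the rest was made.

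**Figure D5:**
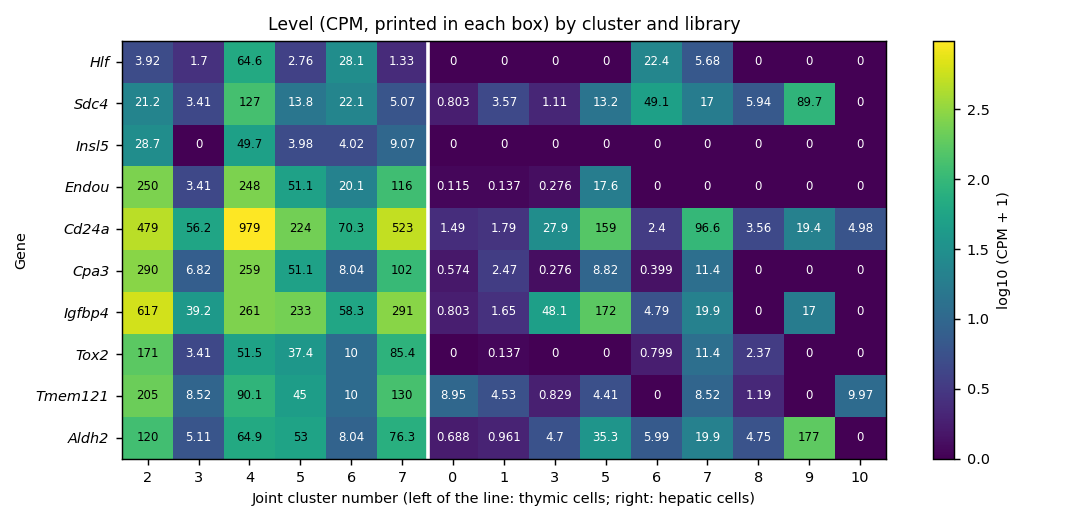
Level of each gene by joint cluster (columns) for thymic cells left of the white line and hepatic cells right of it, colored by log10(CPM + 1) with the CPM printed; clusters with under 20 cells of a library are left out. Hlf is above 20 CPM in thymic clusters 4 and 6 and in hepatic cluster 6 only, Tox2 peaks in thymic cluster 2 (171 CPM), and Igfbp4 reaches 172 CPM in hepatic cluster 5.

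The liver is a library in which the genes had not been picked. Only 137 of 8075 hepatic cells had a Cd24a UMI, 87 with 1 and 50 with 2 or more. Igfbp4 was at 8.995 CPM in cells without Cd24a, 114 CPM with 1 UMI and 136 CPM with 2 or more, a ratio of 13.6 (10.1 to 18.2) for any against none. Aldh2 was at 4.73, 33.6 and 83.6 CPM (11.2, 7.04 to 17.3) and Tmem121 at 5.03, 3.36 and 31.3 CPM (2.85, 1.12 to 6.05). Of the members with 50 UMIs other than Cd24a, which defines the groups, Igfbp4, Aldh2 and Tmem121 were past 2-fold and Hlf and Sdc4 were not, where 4.11% of 9801 genes were past 2-fold higher. The Tmem121 value rested on 1 cell of cluster 2 with 5 of the 7 UMIs: without the 3 hepatic cells of clusters 2 and 4, all with Cd24a, its ratio was 0.837, and those of Igfbp4 (10.5) and Aldh2 (11.1) stayed past 2-fold. Tox2, Cpa3 and Endou had too few UMIs for that rule, with 5 of 11, 6 of 33 and 3 of 8 UMIs in cells with Cd24a. Hlf had 0 of 58 UMIs there (ratio at most 3.18) and Sdc4 7 of 211 (1.66, 0.660 to 3.49). Igfbp4 was mainly in hepatic cluster 3 (174 of 273 UMIs), led by Ly6c2, Dapl1, Nsg2 and Ccr7, where Cd24a also had 101 of its 242 UMIs.

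Genes of other cells moved with Cd24a in the liver. B cell genes, all 4 present, summed to 25.001 CPM at 0, 165 CPM at 1 and 517 CPM at 2 or more Cd24a UMIs, and the 4 myeloid genes to 451, 797 and 2889 CPM. A B cell UMI was found in 11 of the 50 cells with 2 or more, and a Cd3 UMI in 48 of the 50. Aldh2 was highest in hepatic cluster 9, at 177 CPM (73 of 138 UMIs). When cells with any B cell, myeloid or erythroid UMI were left out, which kept 93 cells with Cd24a, Igfbp4 stayed past 2-fold at a ratio of 11.9. Aldh2 was at a ratio of 14.6 but had fewer than 50 UMIs, and Tmem121 was at 0.561.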

How the data were processed

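Whole-number UMI counts per gene and cell barcode were deposited by the authors as 1 matrix per tissue. Cell Ranger, Seurat 3.0 and mm10 are named in the submitters' processing notes; the annotation is not given in the sources used here. No batch label splits either library. The members and the gene lists were chosen with earlier results of these data known. Cells with 800 to 4000 genes and at most 6% mitochondrial UMIs were kept, with 25040963 hepatic and 17371662 thymic UMIs before filtering. Counts were summed over cells and given as CPM with exact Poisson intervals. Ratios have exact conditional binomial intervals, shares exact binomial (Clopper-Pearson) intervals, all at 95%. UMIs were taken as independent molecules, so intervals and floors cover counting error only. A gene was tested with 50 UMIs over both groups and called past 2-fold when its interval excluded 1. Cells were thinned to 1500 UMIs (seed 11), which left out 5 hepatic and 7 thymic cells. Joint clustering used Seurat 5.3.0 in R 4.3.3 (1990 variable genes without the members, 30 components, resolution 0.6), and 2-means used scikit-learn 1.9.0. Python 3.11.15 with numpy 2.4.6, scipy 1.17.1 and pandas 2.3.3 did the rest. Doublets were kept: Scrublet in scanpy 1.11.5 called 2 cells per library, too few to have worked, so an alternative removed the highest scores (558 hepatic and 117 thymic cells). Functions were tested on simulated counts. Genes named are the members, the fixed lists, the 3 highest correlates of each member, the 10 non-members with the highest ratio by Cd24a and the 5 largest ratios in each direction of a split, where the higher of both groups had to reach 50 CPM. Il17re, Cd74, H2-Ab1 and the genes that lead clusters are named beside them. Kit, in both the mast cell and the early list, was counted in the early list. A gene of the type 17 regulator list is not reported here.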

Additional observations from a re-analysis of the deposited data

How the results depend on the processing

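No paired analysis was possible because each tissue is 1 library and no replicate numbers are given. All 10 genes were past 2-fold between tissues under each of the 7 alternatives. Between thymic cells with 3 or more and 0 Cd24a UMIs, 3 were past 2-fold, 5 with the mean of the cells' own CPM and 5 with bins after thinning, and 9 other alternatives stayed within 1.5 times. These 9 include cells without a cycling UMI, and cells without a B cell, myeloid or erythroid UMI. After thinning the log2 ratios of Tox2 and Igfbp4 turned to -0.19 and -0.26, and with 5 or more against 0 that of Igfbp4 to -0.063. The split by Dntt against Sox13, Maf and Blk had 2 genes past 2-fold, but 1 without cycling cells, 4 by 2-means with or without cycling cells, 6 by clusters 2 and 4 with or without them, and 5 by size classes; 11 other alternatives stayed within 1.5 times. Tox2 turned from lower to higher by clusters (1.76, and 1.72 without cycling cells), by 2-means without cycling cells (0.24) and by size (1.43), Igfbp4 by clusters (1.28 and 1.29) and by size (0.73), and Cpa3 by clusters (0.19 and 0.20), all as log2 ratios. In the liver, 4 members were past 2-fold and 2 without cells holding a B cell, myeloid or erythroid UMI, where the log2 ratio of Tmem121 was -0.83. That ratio was -0.26 without the hepatic cells of clusters 2 and 4, where 3 members were past 2-fold. These liver counts, and those by Cd24a in the thymus, include Cd24a itself, which defines the groups. The clusters, the size classes and the 2-means without cycling cells were chosen after seeing the data. So were the removals of cells with a B cell, myeloid or erythroid UMI and of hepatic cells of clusters 2 and 4. The cause of these changes was not tested. Depth limits the rare genes: Hlf had 264 UMIs in the thymus, and in the liver Insl5 had 0, Endou 8, Tox2 11 and Cpa3 33.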
